A study of Mus musculus with 16 samples.

Results

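Mast cell genes were measured at day 28 in colon without tumour from 16 ApcMin/+ mice, through 9 genes that mast cells use to store proteases, bind IgE and make histamine. The genes were Mcpt1, Mcpt2, Mcpt4, Cma1, Tpsb2, Cpa3, Fcer1a, Ms4a2 and Hdc, and every probe that the array's annotation assigns to one of these names was taken, which gave 10 probes, 2 of them for Tpsb2. Of the 9 genes, 7 were well above background on at least 4 of the 16 arrays and entered the test among 24572 genes. Cma1 and Ms4a2 did not enter it. ApcMin/+ mice carry an inactivating mutation in a single copy of the tumour suppressor Apc, in all groups alike. The 6 5-ASA mice received dextran sulphate sodium (DSS, 1.5% w/v), which injures the colonic epithelium, over 3 days, and the anti-inflammatory drug 5-aminosalicylic acid (5-ASA). The 6 Control mice received the same DSS course and saline or plain water, and the 4 Sham mice drank water throughout. Differing accounts of the dosing stand in the labels: the protocol has 5-ASA or saline placed in the colorectum over 28 days, and the descriptions have 5-ASA or water to drink over the 25 days after DSS. The labels state no strain beyond the ApcMin/+ allele, no age and no sex.

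Mast cells are long-lived granulocytes that mature in tissues under stem cell factor, the ligand of Kit. When antigen crosslinks IgE on the high-affinity receptor, whose alpha and beta chains are encoded by Fcer1a and Ms4a2, they release granules of histamine and proteases. In mice, mucosal mast cells, which lie in and under the gut epithelium, are known for the chymases of Mcpt1 and Mcpt2, and connective tissue mast cells, which lie in submucosa, muscle and skin, for the chymases of Mcpt4 and Cma1 and the tryptase of Tpsb2. Cpa3 encodes the mast cell carboxypeptidase. Hdc encodes histidine decarboxylase, which makes histamine in mast cells, basophils, neutrophils and some epithelial cells.

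The chymase genes lie together on chromosome 14, and their sequences are close relatives, so the probes themselves bear on what each value measures. All 10 probes were 60 bases long. In mm9, the genome build of the files, the Mcpt1 probe lay at chr14:56638928-56638987 on the plus strand, the Mcpt2 probe at chr14:56663261-56663320 on the plus strand and the Mcpt4 probe at chr14:56678589-56678648 on the minus strand, each toward the 3′ end of its transcript. The last 30 bases of the Mcpt1 probe and the first 30 of the Mcpt2 probe share a stretch of 17 bases with 2 mismatches, in capitals here. The longest identical run between probes of different members, 10 bases, falls inside it. The first 30 bases of the Mcpt4 probe are given beside them, all in lower case.
Mcpt1 probe end: agtcataaatggcAAGTAGCTGAGAAGTCT
Mcpt2 probe start: AAGTAGCTGAAAAGCCTaaccagcctgagt
Mcpt4 probe start: tgaaagatgaattctgtgatgatggactgt
The Mcpt1 and Mcpt4 probes shared no identical run longer than 5 bases. Cross-hybridisation was not tested.

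The promoters are shown because the measured values of Mcpt1, Mcpt4, Cpa3 and Fcer1a varied together between mice, as described further on. Fcer1a was well above background on only 4 of the 16 arrays. Each is the 250 bases before the transcription start in the RefSeq table of GRCm38.p6, read on the gene's own strand. GATA factors, among them the mast cell regulator encoded by Gata2, bind motifs with the core GATA, and the capitals mark AGATAA or TGATAA on either strand. The regions are chr14:56017714-56017963 on the plus strand for Mcpt1, chr14:56062311-56062560 on the minus strand for Mcpt4, chr3:20242182-20242431 on the minus strand for Cpa3 and chr1:173227230-173227479 on the minus strand for Fcer1a.
Mcpt1 promoter: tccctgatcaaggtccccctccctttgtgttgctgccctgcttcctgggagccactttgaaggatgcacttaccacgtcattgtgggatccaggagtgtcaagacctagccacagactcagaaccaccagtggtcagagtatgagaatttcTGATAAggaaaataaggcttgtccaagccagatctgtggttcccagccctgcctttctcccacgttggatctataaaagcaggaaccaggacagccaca
Mcpt4 promoter: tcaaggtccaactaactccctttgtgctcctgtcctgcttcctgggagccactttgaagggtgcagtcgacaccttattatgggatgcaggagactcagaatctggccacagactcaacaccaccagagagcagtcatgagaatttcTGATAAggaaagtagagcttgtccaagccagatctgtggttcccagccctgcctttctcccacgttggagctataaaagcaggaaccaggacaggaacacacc
Cpa3 promoter: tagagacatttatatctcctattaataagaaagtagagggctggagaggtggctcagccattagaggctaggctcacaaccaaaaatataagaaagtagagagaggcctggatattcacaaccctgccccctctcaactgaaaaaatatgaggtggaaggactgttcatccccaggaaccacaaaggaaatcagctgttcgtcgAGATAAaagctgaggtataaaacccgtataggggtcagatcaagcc
Fcer1a promoter: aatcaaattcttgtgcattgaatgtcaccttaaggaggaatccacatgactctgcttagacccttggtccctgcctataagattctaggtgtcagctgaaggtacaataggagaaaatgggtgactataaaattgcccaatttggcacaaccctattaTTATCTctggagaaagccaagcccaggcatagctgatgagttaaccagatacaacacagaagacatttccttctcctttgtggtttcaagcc
The table held promoters of 7 of the 9 members, without Mcpt2 and Tpsb2. AGATAA or TGATAA was in 5 of these 7 (Mcpt1, Mcpt4, Cpa3, Fcer1a and Ms4a2), and in 16.6% of all 32851 promoters of the same length. The sequence TATAAA, on either strand, was in 4 of the 7, the same 4 that are printed, and in 12.4% of all promoters. Aligned end to end, the Mcpt1 and Mcpt4 promoters were identical in 213 of 260 aligned columns (81.9%), against 54.1% for the next closest pair, Mcpt4 and Cma1. The GATA match lay 99 bases before the start in Mcpt1 and 103 bases before it in Mcpt4. A match is a string of letters and shows no binding.

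Values are log2 intensity after subtraction of the array's own 75th percentile over non-control probes, so 0 is the level of a fairly bright probe and each step of 1 is a doubling. They are compared across mice for a given probe and not between probes. The arrays lay on 2 slides that each held 3 5-ASA, 3 Control and 2 Sham mice, in 2 rows of arrays. All 5-ASA arrays lay in the second row with Control 3 and Control 6, and all Sham arrays lay in the first row with the other Control mice, so 5-ASA and Sham shared no row. The second row was noisier: the lowest signal well above background stood at -6.97 to -6.49 there and at -8.18 to -7.36 in the first row, and 53.0% to 57.7% of spots were well above background against 59.8% to 65.2%. The labelled tissue had its markers, with 8 of 8 epithelial and 8 of 8 smooth muscle marker genes measured. In whole tissue, fewer mast cells and less RNA per mast cell cannot be told apart.

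The mucosal chymase Mcpt1 was the member with the widest range. Its lowest, median and highest values were -4.09, -1.97 and 0.83 in 5-ASA mice, and -6.68, -3.60 and 0.17 in Control mice. In Sham mice it stood at -4.78, -3.60, -3.07 and -4.12. The 3 groups overlapped, and the high end of the DSS-treated groups was made by 5-ASA 5 (0.83), Control 6 (0.17) and 5-ASA 3 (-0.27), while the next mouse, 5-ASA 6, stood at -1.91. The lowest value, in Control 3, was not well above background. Means were -1.63 ± 1.72 in 5-ASA mice and -3.66 ± 2.31 in Control mice (SD, n = 6 each), and -3.89 ± 0.73 in Sham mice (SD, n = 4). The 5-ASA minus Control difference of 2.03 (SE 0.98, 95% interval -0.06 to 4.11) was the largest of any member in that comparison, and it did not pass over all genes (limma adjusted p = 0.999).

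Mcpt2, the other mucosal chymase, was higher in each Control mouse than in any Sham mouse, though the difference was not called. Its lowest, median and highest values were -4.02, -2.68 and 0.40 in 5-ASA mice, and -3.06, -2.69 and -0.20 in Control mice. Sham mice had -4.93, -3.23, -3.22 and -3.91. All 6 Control mice lay above all 4 Sham mice, by a gap from -3.06 to -3.22, whereas 5-ASA 4 lay among the Sham mice. Such separation was not rare on these arrays, since 3.33% of genes had Control and Sham groups that did not overlap. The Control minus Sham difference was 1.51 (SE 0.74, 95% interval -0.08 to 3.09) and was not called (limma adjusted p = 0.564). The same 3 mice led here as for Mcpt1, in the same order.

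Among the genes of connective tissue mast cells, Mcpt4 followed the mucosal chymases. The Mcpt4 chymase had lowest, median and highest values of -4.04, -1.86 and 0.96 in 5-ASA mice, and of -4.59, -3.14 and 0.30 in Control mice. Sham mice had -4.40, -2.98, -2.54 and -3.73. 5-ASA 5, Control 6 and 5-ASA 3 were again the highest, at 0.96, 0.30 and -0.09, and the next mouse, 5-ASA 2, stood at -1.69. Means were -1.49 ± 1.74 in 5-ASA and -2.82 ± 1.66 in Control mice (SD, n = 6 each), a difference of 1.33 (SE 0.83, limma adjusted p = 0.999).

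The tryptase Tpsb2 and the chymase Cma1 did not have this pattern. The brighter Tpsb2 probe ranged from -1.95 to -0.32 in 5-ASA mice, with a median of -1.10, and from -1.61 to -0.53 in Control mice, with a median of -1.01. Sham mice had -1.78, -1.41, -1.36 and -0.61. Control 6, 5-ASA 3 and 5-ASA 5 ranked 5, 11 and 2 of 16 in it. The groups overlapped almost entirely, with a 5-ASA minus Control difference of -0.04 (SE 0.30). Cma1 was well above background on 3 arrays, those of Control 4 (-2.77), Sham 3 (-2.78) and Sham 2 (-5.09), and on none of the 6 5-ASA arrays. Its measured means were -5.64 in 5-ASA, -5.46 in Control and -5.35 in Sham mice. Since most of these values are not well above background, no fold is given, and Cma1 was not tested in the fit.

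**Figure D1:**
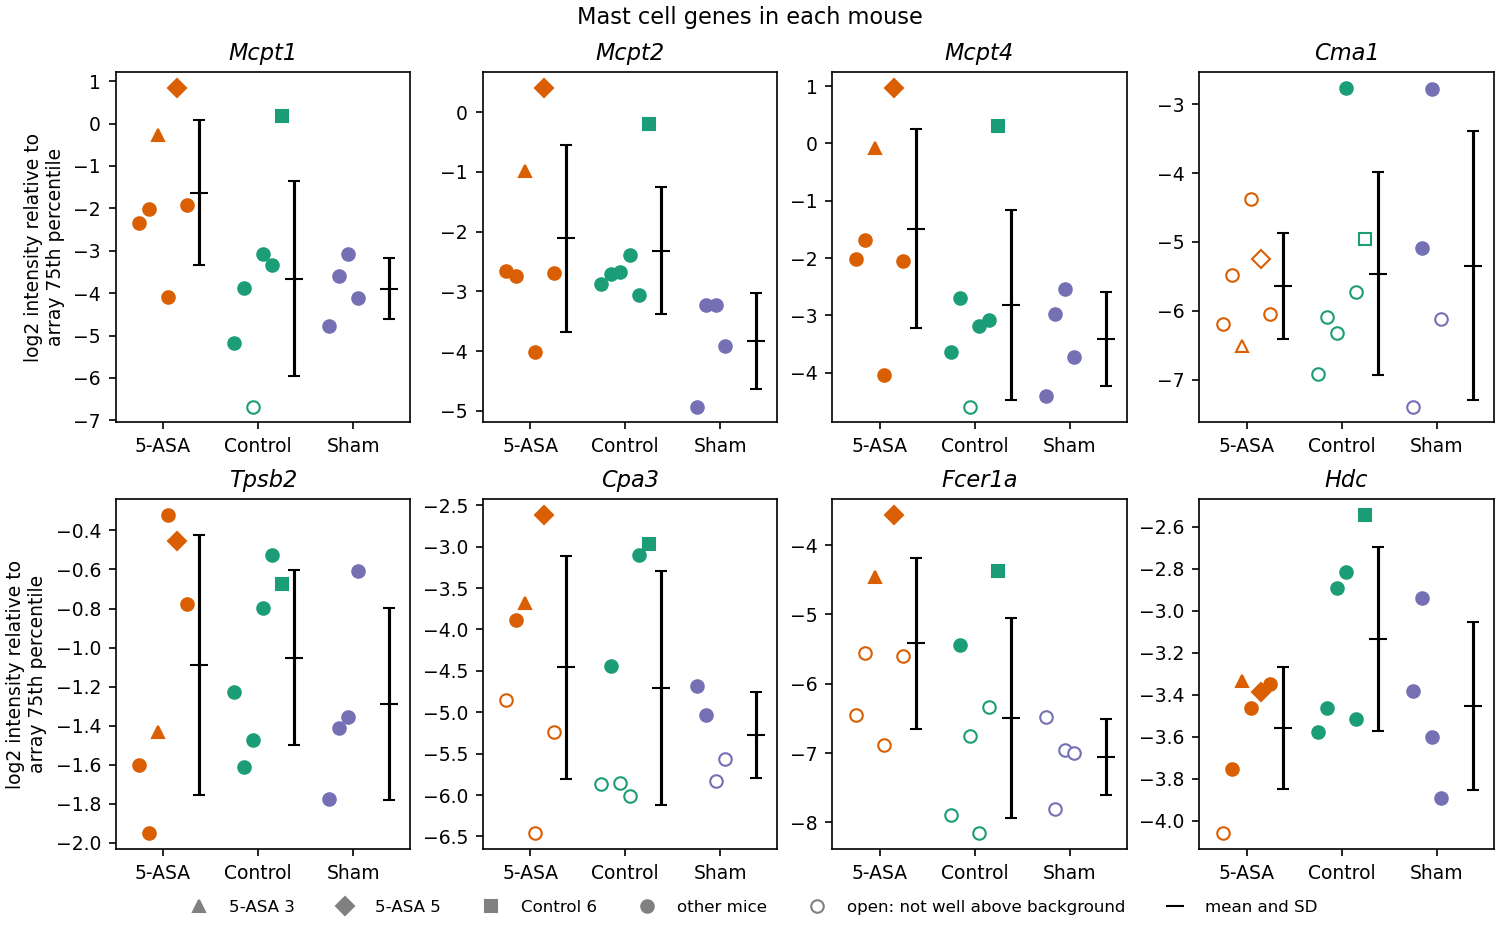
Log2 intensity above or below the array's 75th percentile (vertical axes, own scale in each panel) of 8 mast cell genes in 5-ASA, Control and Sham mice, 1 point per mouse, with the mean and SD beside each group; open points were not well above background, and triangle, diamond and square mark 5-ASA 3, 5-ASA 5 and Control 6. In Mcpt1, Mcpt2, Mcpt4 and Fcer1a these 3 mice stand above the other 13, and in Tpsb2, Cma1 and Hdc they do not. Fcer1a was well above background only in these 3 mice and Control 2, and passed the filter through them.

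The carboxypeptidase gene Cpa3 was dim, well above background on 8 of 16 arrays, 3 of 6 5-ASA, 3 of 6 Control and 2 of 4 Sham. Its lowest, median and highest values were -6.46, -4.37 and -2.62 in 5-ASA mice, and -6.01, -5.15 and -2.97 in Control mice. Sham mice had -4.68, -5.03, -5.83 and -5.57. 5-ASA 5 and Control 6 were highest, followed by Control 5 at -3.11 and 5-ASA 3 at -3.69. The 5-ASA minus Control difference was 0.25 (SE 0.67) and the Control minus Sham difference 0.57 (SE 0.75), both uncalled. The Cpa3 probe lies in spot row 378 of 384, within an edge band (rows 373 to 384) that held 13 of the 14 genes called in Control against Sham and 12 of the 14 called in 5-ASA against Sham. The band's median difference over 786 genes was -0.05 and -0.07 in these comparisons. The part of spot position in the Cpa3 values was not tested.

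The IgE receptor was at the edge of detection. Fcer1a, the chain that binds IgE, was well above background in 5-ASA 3, 5-ASA 5, Control 2 and Control 6, and in none of the 4 Sham mice. Its lowest, median and highest values were -6.89, -5.57 and -3.57 in 5-ASA mice, and -8.16, -6.55 and -4.37 in Control mice. Sham mice had -6.48, -7.81, -6.96 and -6.99. Measured means were -5.42 in 5-ASA, -6.49 in Control and -7.06 in Sham mice (limma adjusted p = 0.426 for 5-ASA against Sham and 0.834 for Control against Sham). With no more than 2 of 6 arrays detected in either DSS-treated group and 0 of 4 in Sham, these means rest mostly on values that are not well above background, and no fold is given. The array row moved with this gene: with row as a covariate, the measured 5-ASA minus Sham difference was 0.25 in place of 1.64, and the 5-ASA minus Control difference 0.15 in place of 1.07. With normexp background correction the Control minus Sham difference was -0.013 in place of 0.57. Ms4a2, the signal-amplifying beta chain, was well above background on 0 of 16 arrays. Its measured means of -6.39 in 5-ASA, -7.28 in Control and -7.35 in Sham mice rest on values that are not well above background, and no fold is given.

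Hdc had the narrowest spread of the 7 tested members. It lay between -4.06 and -3.33 in 5-ASA mice, with a median of -3.43, and between -3.58 and -2.55 in Control mice, with a median of -3.18. Sham mice had -3.38, -2.94, -3.60 and -3.89. Control 6 was highest and Control 4 next, at -2.81, and the groups overlapped. The 5-ASA minus Control difference was -0.42 (SE 0.21, 95% interval -0.87 to 0.02, limma adjusted p = 0.999), and -0.84 with array row as a covariate. Control 4 and Control 6 also had the highest level of 7 measured neutrophil markers of a list of 8, at 1.73 and 1.43 above the mean of all mice, with Control ranging from -1.18 to 1.73 and 5-ASA from -0.78 to 0.46. They had the lowest level of 8 smooth muscle markers, at -0.94 and -1.23, with Control ranging from -1.23 to 0.76 and 5-ASA from -0.01 to 0.45. The part of these cells in the Hdc values was not tested.

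Between 5-ASA and Control, which asks what the drug changed after the same DSS course, 5 of 7 members were higher and 2 lower, and none was called. Tpsb2 counts as lower by its brighter probe, and its second probe was higher, with means of -1.69 in 5-ASA and -1.77 in Control mice. Differences ran from -0.42 (Hdc) to 2.03 (Mcpt1), with a median of 0.25 against 0.00012 over all genes, of which 12298 were higher. Of all 24572 genes, 0 were called by limma at an adjusted p of 0.05 (0%), and 1019 had an unadjusted p below 0.05 (4.15%), none of them a member. The groups overlapped in all 7 members, as in all but 0.131% of genes. The differences were not alike on the 2 slides. Mcpt1 differed by 3.69 on slide 1, which held the low Control 3, and by 0.36 on slide 2, which held Control 6 and 5-ASA 4, and Mcpt4 by 2.38 and 0.28. Mcpt2 stood at 0.63 on slide 1 and -0.22 on slide 2, and Cpa3 at 1.25 and -0.75 in that order. With array row as a covariate Mcpt2 stood at -0.67 and Mcpt4 at 0.66.

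Between 5-ASA and Sham, 6 of 7 members, and 12291 of all 24572 genes, were higher in 5-ASA. For Tpsb2 this holds for the brighter probe, and the second probe had means of -1.69 in 5-ASA and -1.68 in Sham mice. The member differences ran from -0.10 (Hdc) to 2.26 (Mcpt1). Their median of 1.64, against a median near 0 over all genes, is the measured difference of Fcer1a, which no Sham array detected and which passed the filter through 4 arrays of the other groups. Mcpt1 differed by 2.26 (SE 1.09), Mcpt4 by 1.93 (SE 0.93) and Mcpt2 by 1.71 (SE 0.74). Mcpt2 had an unadjusted p below 0.05, a level that 11.1% of all genes reached. Fcer1a also had one, which is not read here because its Sham values were not well above background. No member was called, with a lowest limma adjusted p of 0.419 for Mcpt2, against 14 called genes in all (0.0570%). In all 7 members the groups overlapped, and 1.88% of genes had groups that did not. Since 5-ASA and Sham arrays shared no row, these differences and the row cannot be told apart within this pair of groups. With the row estimated through the Control mice, Mcpt2 stood at 0.39, Mcpt4 at 0.92 and Mcpt1 at 1.65.

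Between Control and Sham, which asks what DSS left behind at day 28, all 7 tested members were higher in Control, by 0.23 (Mcpt1) to 1.51 (Mcpt2), with a median of 0.57, the measured difference of Fcer1a, against 0 over all genes to 2 decimals. No Sham array detected Fcer1a, which passed the filter through 4 arrays of the other groups. The Fcer1a difference was -0.013 with normexp background correction. For Tpsb2 only the brighter probe was higher in Control. The second Tpsb2 probe was lower there, with means of -1.77 in Control and -1.68 in Sham mice. Of all 24572 genes, 12292 were higher in Control. No member was called and no member had an unadjusted p below 0.05, a level that 8.89% of genes reached. Again 14 genes were called in all (0.0570%). The Mcpt1 difference turned to -0.53, and that of Mcpt4 to -0.03, without Control 6, while Mcpt2 stood at 1.08 without it. Both 5-ASA and Control were set against the same Sham mice, so the last 2 comparisons are not independent.

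**Figure D2:**
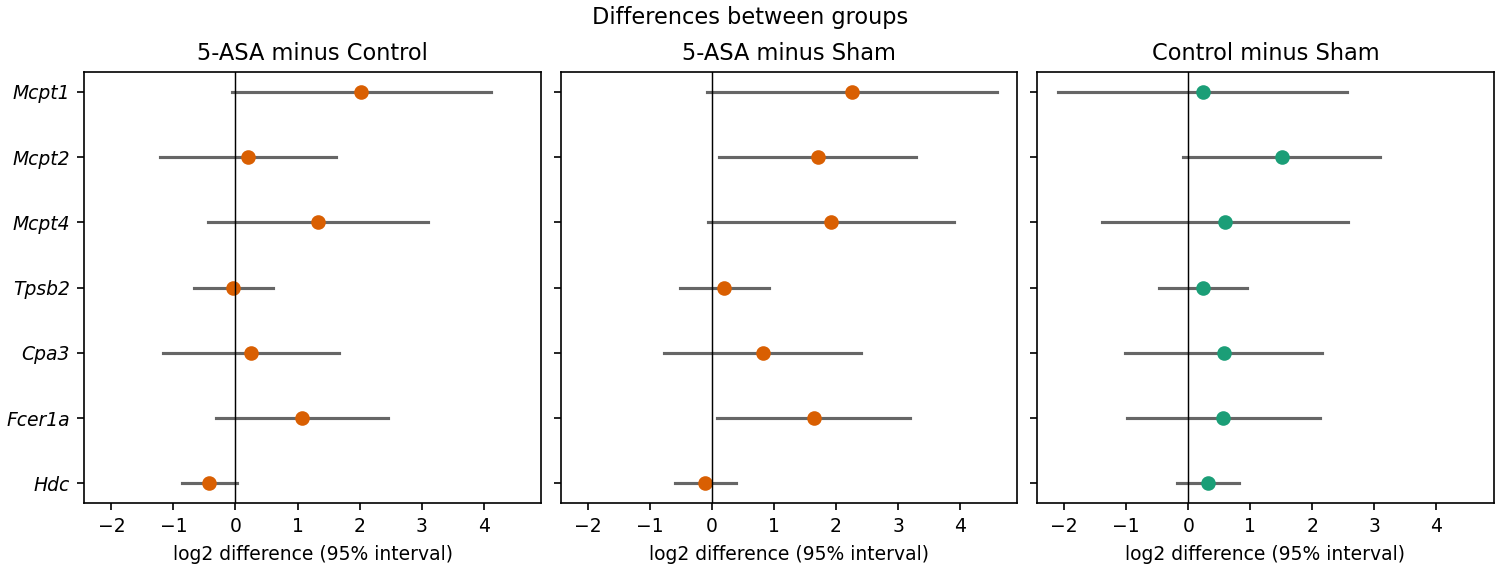
Log2 differences between groups (horizontal axis) of the 7 tested members, as limma estimates with 95% intervals, for 5-ASA minus Control, 5-ASA minus Sham and Control minus Sham. The intervals for Mcpt1 span over 4 log2 units, those of Tpsb2 and Hdc are the narrowest, and 2 of the 21 intervals, Mcpt2 and Fcer1a in 5-ASA minus Sham, leave out 0 before adjustment; Fcer1a was well above background on no Sham array.

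Set against each other within each mouse, the mucosal and connective tissue proteases gave differences that lose the changes shared by both. Mcpt1 minus Mcpt4 was -0.15 ± 0.18 in 5-ASA mice (n = 6), -0.84 ± 0.88 in Control mice (n = 6) and -0.48 ± 0.12 in Sham mice (n = 4). Mcpt2 minus Mcpt4 was -0.63 ± 0.37 in 5-ASA mice, 0.50 ± 0.85 in Control mice and -0.41 ± 0.24 in Sham mice (SD). In Control 3 neither Mcpt1 nor Mcpt4 was well above background, and without that mouse the Control mean of Mcpt2 minus Mcpt4 was 0.22. A constant offset between probes shifts the level of either difference and cancels in its change between groups. That change can still depend on the probe chosen and on the background correction. Relative to Mcpt4, Mcpt2 was lower in 5-ASA than in Control, with a difference of -1.13 (exact two-sided permutation p = 0.00649, adjusted p = 0.0571 over 12 comparisons). That difference was -1.75 on slide 1 and -0.50 on slide 2, and -0.84 without Control 3. With normexp background correction it was -0.85. All 5-ASA arrays lay in the second array row, and of the Control arrays only those of Control 3 and Control 6. In Control 6 Mcpt2 stood at -0.20 and Mcpt4 at 0.30, so Mcpt2 was the lower there, as in the 5-ASA mean. The part of the array row in this difference between 5-ASA and Control was not tested. Mcpt1 was higher relative to Mcpt4 in 5-ASA than in Sham by 0.33 (exact permutation p = 0.00952, the smallest that 4 against 6 mice allow, adjusted p = 0.0571). With normexp this difference was 0.22 (exact permutation p = 0.0952, adjusted p = 0.231). These 2 groups shared no array row, so it cannot be told apart from the row. None of the 12 comparisons of Mcpt1 or Mcpt2 with Mcpt4 or Tpsb2 passed an adjusted p of 0.05, and 3 had an unadjusted p below it. The third was Mcpt2 minus Mcpt4 in Control against Sham, higher by 0.91 in Control (exact permutation p = 0.0476, adjusted p = 0.171), and by 0.63 without Control 3.

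Several members varied together over the mice as a whole. Over the 16 mice, all 10 pairs among Mcpt1, Mcpt2, Mcpt4, Cpa3 and Fcer1a were correlated (Pearson r from 0.65 to 0.96, permutation test, adjusted p from 0.00021 to 0.0124 over 21 pairs of the 7 members). By Spearman's rho 8 of these 10 passed, and Mcpt2 with Cpa3 (rho = 0.42, adjusted p = 0.230) and with Fcer1a (rho = 0.54, adjusted p = 0.0719) did not. Of these genes, Cpa3 was well above background on 8 arrays. Fcer1a was well above background on 4, those of 5-ASA 3, 5-ASA 5, Control 2 and Control 6, and passed the filter through them. Its pairs rest mostly on values that are not well above background, whose floor differed between the array rows. They are given as measured and are not read as a result about Fcer1a. No pair with Tpsb2 or Hdc passed, with r from 0.05 to 0.37. Mcpt1 and Mcpt4, a mucosal and a connective tissue chymase by their usual class, were the closest pair, with r = 0.96 and rho = 0.94 (permutation p = 1e-05 for both, the smallest that 100000 draws can give). Their r was 0.97 on slide 1 and 0.99 on slide 2, 0.99 in 5-ASA mice alone and 0.95 in Control mice alone, where the adjusted exact p was 0.0875. Without 5-ASA 5 and Control 3, the mice farthest from the median of Mcpt1, it was 0.96.

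The other pairs were weaker without 3 mice that stood among the highest 4 in each of these genes. 5-ASA 5, Control 6 and 5-ASA 3 ranked 1, 2 and 3 in Mcpt1, Mcpt2 and Mcpt4 and 1, 2 and 4 in Cpa3. They also ranked 1, 2 and 3 in Fcer1a. That gene passed the filter only through their arrays and that of Control 2, so its ranks add nothing to the pattern. Without these 3 mice, a choice made after their values were seen, 1 of 21 pairs passed, Mcpt1 with Mcpt4 (r = 0.89, n = 13, permutation test, adjusted p = 0.00063), by either r or rho. The other 9 pairs then had r from 0.04 (Mcpt2 with Fcer1a) to 0.57 (Cpa3 with Fcer1a), and Cpa3 with Fcer1a kept the highest rho of them, at 0.73 (permutation test, adjusted p = 0.0582). In the 13 mice Fcer1a was well above background on 1 array and Cpa3 on 5. That rho therefore rests mostly on values that are not well above background, and it is not read as a result. The 3 mice left out were chosen for being high in the correlated genes, so leaving them out also narrows the range that r is taken over. Without the 2 mice farthest from the median of the first gene of each pair, 6 pairs passed by r and 3 by rho. Within slides, 1 pair passed on slide 1 and 5 on slide 2 by the exact test of r, against 2 and 1 by rho in that order. By r all 10 passed in 5-ASA mice alone and none of 21 in Control mice alone, with 6 mice each, while by rho 0 passed in 5-ASA mice alone. With group means subtracted all 10 passed by r and 8 by rho. Sham mice, at 4, were too few for a correlation of their own. Diarrhea scores at day 28 were 0 for 5-ASA 5, 1 for Control 6 and 0.5 for 5-ASA 3, within the 0 to 1.5 of all mice. All 3 arrays lay in the second, noisier row, which held 8 of the 16 arrays.

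**Figure D3:**
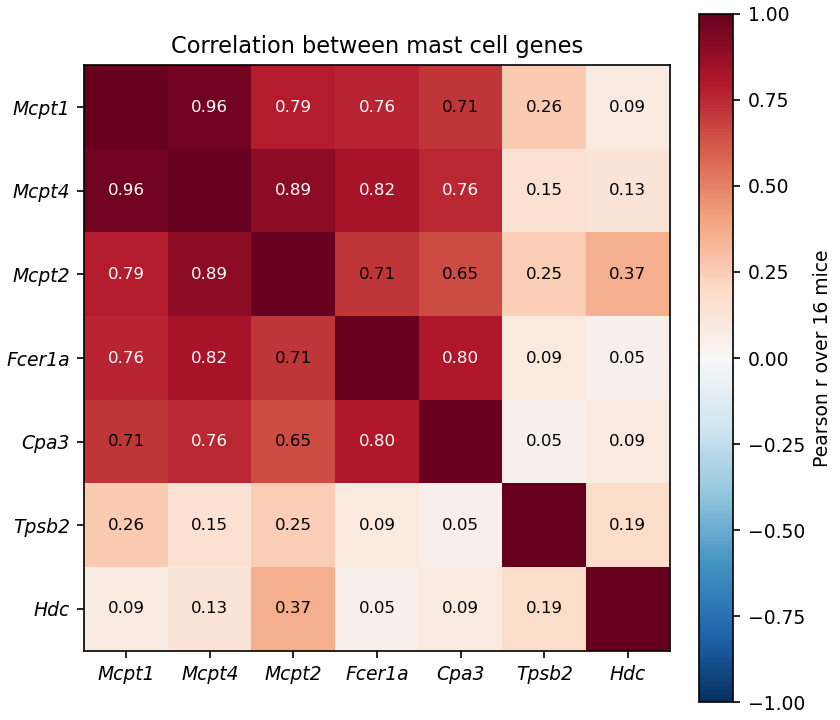
Pearson r over 16 mice for each pair of the 7 tested members, from blue (-1) to red (1). The 10 pairs among Mcpt1, Mcpt4, Mcpt2, Fcer1a and Cpa3 lie between 0.65 and 0.96, and the pairs with Tpsb2 or Hdc between 0.05 and 0.37. Fcer1a was well above background on only 4 of the 16 arrays.

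**Figure D4:**
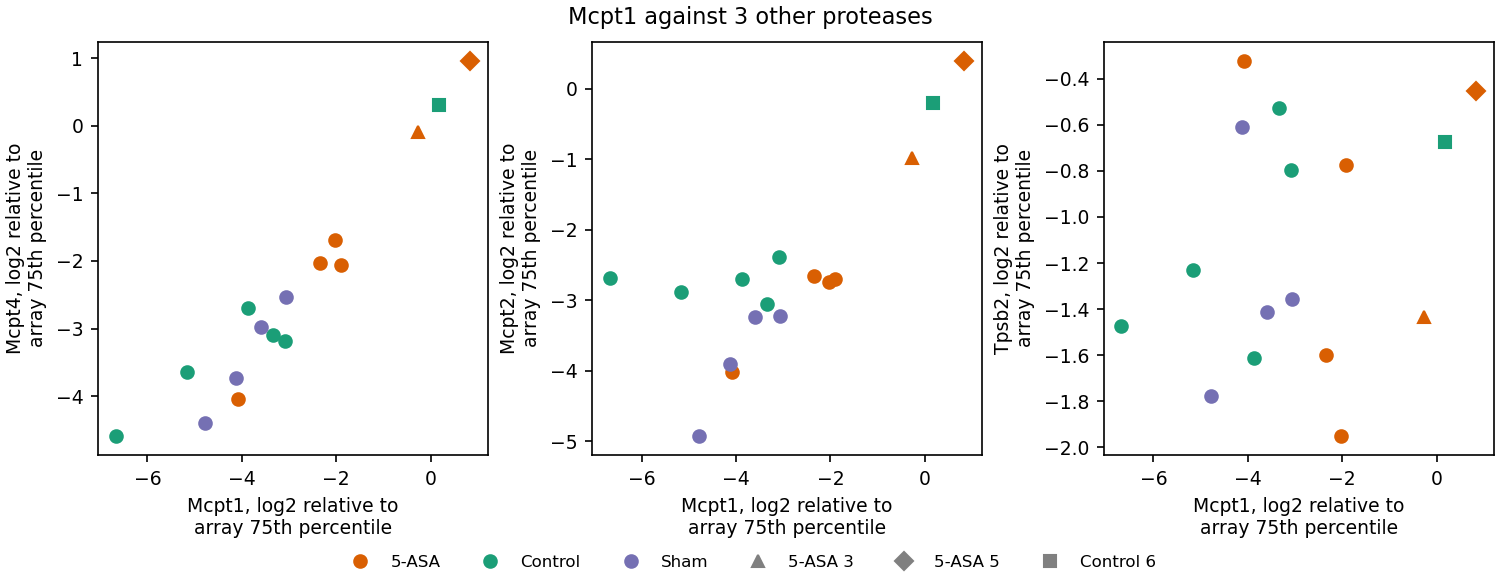
Mcpt1 (horizontal axis) against Mcpt4, Mcpt2 and Tpsb2 (vertical axes), all as log2 intensity against the 75th percentile, 1 point per mouse, coloured by group; triangle, diamond and square mark 5-ASA 3, 5-ASA 5 and Control 6. Mcpt4 rises with Mcpt1 over the whole range (r = 0.96), Mcpt2 is high mainly in the 3 marked mice (r = 0.79), and Tpsb2 is spread without order (r = 0.26).

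Tpsb2 was the member with more than 1 probe, and its probes disagreed. The brighter one, at chr17:25504819-25504878 on the plus strand in mm9, and the second, at chr17:25504493-25504552, were both well above background on all 16 arrays and correlated negatively across mice (r = -0.81, permutation p = 0.0004, rho = -0.74, permutation p = 0.00133). Without the 2 mice farthest from the median r was -0.85. Within slides it was -0.34 on slide 1 and -0.08 on slide 2 (exact permutation p = 0.408 and 0.881, n = 8 each). The slides divided the values in opposite directions: slide 2 minus slide 1 was 0.87 for the brighter probe (means -0.69 and -1.56, exact permutation p = 0.000311, adjusted p = 0.00155 over 10 probes). It was -0.85 for the second probe, whose slides did not overlap (means -2.14 and -1.29, exact permutation p = 0.000155, adjusted p = 0.00155), as was true of 5.58% of all genes. Group differences of Tpsb2 were small by either reading, since the mean of both probes put 5-ASA minus Control at 0.02 and Control minus Sham at 0.07.

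**Figure D5:**
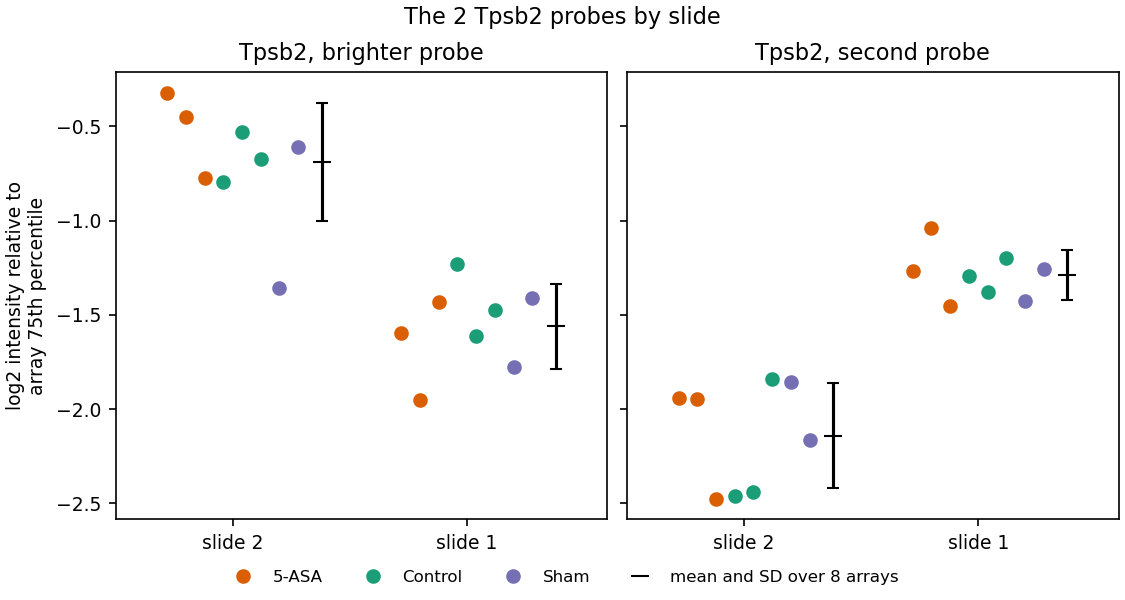
Log2 intensity, as above or below the array's 75th percentile, of the 2 Tpsb2 probes on slide 2 and slide 1, 1 point per mouse, coloured by group, with the mean and SD over 8 arrays. The brighter probe is higher on slide 2 (-0.69 against -1.56) and the second probe lower there (-2.14 against -1.29).

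Other genes of mast cells were measured from a list of 20, of which 16 passed the detection filter and none was called in any comparison. Of all genes, 0% were called in 5-ASA against Control and 0.0570% in each of the other comparisons. In 5-ASA against Control, 8 of the 16 list genes were higher and 8 lower, with a median difference of -0.02. Syk, the kinase downstream of the IgE receptor, had the smallest p, at -0.36 (SE 0.12, unadjusted p = 0.00717, limma adjusted p = 0.999). An unadjusted p below 0.05 was reached by 4.15% of all genes in this comparison. Cma2, a chymase gene, stood at 0.30 (SE 0.20), Gata2 at 0.41 (SE 0.27) and Kit at 0.23 (SE 0.21). In Control against Sham, 6 were higher and 10 lower, and Il1rl1, the receptor of the alarmin Il33, had the smallest p, at 1.77 (SE 0.79, limma adjusted p = 0.559). That difference is of the brightest Il1rl1 probe, which ran from -3.86 to 1.30 over the 16 mice. A second Il1rl1 probe, also well above background on all 16 arrays, ran only from -2.42 to -1.02. A difference of 1.77 therefore holds for the probe used and not for both. Mitf, a transcription factor of mast cells and melanocytes, stood at -0.22 (SE 0.15) and Syk at 0.17 (SE 0.13). Tpsab1, which encodes the other granule tryptase, and Mcpt9 were well above background on 0 arrays, and Kit and Gata2 on all 16. Kit is also carried by the interstitial cells of Cajal in gut muscle. Of the list, Cma2 had the highest r with Mcpt4 (0.77) and with Mcpt1 (0.62) over the 16 mice.

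Of 15 signals for mast cell growth, homing and differentiation, 12 were measured and none was called, against 0% to 0.0570% of all genes by comparison. In 5-ASA against Control, 2 were higher and 10 lower, with a median of -0.22. Madcam1, the vascular address molecule through which integrin-bearing progenitors enter the gut, stood at -0.74 (SE 0.39), Il33 at -0.33 (SE 0.18) and the cytokine Il10 at -0.59 (SE 0.32). Kitl, which encodes stem cell factor, stood at 0.05 (SE 0.17). In Control against Sham, 5 were higher and 7 lower, and Il33 stood at -0.29 (SE 0.20), Il4 at -0.31 (SE 0.24) and Il10 at 0.45 (SE 0.36). Of 6 genes for histamine receptors and breakdown, 5 were measured. In 5-ASA against Control they lay between -0.005 and 0.12, with Hrh3 at 0.12 (SE 0.22), Hnmt, a histamine methyltransferase, at 0.05 (SE 0.20) and Hrh4 at 0.05 (SE 0.17). In Control against Sham all 5 were lower, and none was called, against 0.0570% of all genes. The receptor Hrh1 stood at -0.40 (SE 0.12, unadjusted p = 0.00421, limma adjusted p = 0.559), Aoc1, the gut's diamine oxidase, at -0.92 (SE 0.40) and Hnmt at -0.19 (SE 0.23). In that comparison 8.89% of all genes had an unadjusted p below 0.05.

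Markers of 10 other cell types were read beside the members, and no marker was called in any comparison, against 0% to 0.0570% of all genes by comparison. In 5-ASA against Control, all 8 smooth muscle markers were higher (median difference 0.41) and all 7 enteric neuron and glia markers (0.21), while all 5 B cell markers were lower (-1.79). All 5 adipocyte and mesothelium markers (-0.43) and all 4 measured macrophage markers (-0.13) were lower as well. In 5-ASA against Sham, 6 of 8 smooth muscle markers were higher (0.04) and 3 of 7 neuron and glia markers (-0.03). All 5 B cell markers were lower (-3.27), each with an unadjusted limma p below 0.05, a level that 11.1% of all genes reached. All 5 adipocyte and mesothelium markers were also lower (-0.73). The B cell marker level was -2.83 in Sham 1, the lowest of the 16 mice, and 2.48 to 3.58 in the other Sham mice. 5-ASA and Sham arrays shared no row. In Control against Sham the smooth muscle, neuron and glia, and B cell markers were all lower (-0.34, -0.25 and -1.14). Basophils share several members with mast cells: their protease Mcpt8 was well above background on 0 arrays and Prss34 on 10, with 2 of 4 basophil genes measured and both lower in 5-ASA than in Control (median -0.18). The part of any of these cell types in the member values was not tested.

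The genes most like Mcpt1 across the 16 mice, by Pearson r over all tested genes outside the members, were Inhba, an activin subunit (r = 0.90), Ptpro, a receptor tyrosine phosphatase (0.87), the unnamed probe A_55_P2181464 (0.86), the matrix metalloproteinase gene Mmp10 (0.84) and the galectin gene Lgals2 (0.82). Without 5-ASA 5, Control 6 and 5-ASA 3 these r were 0.83, 0.67, 0.53, 0.60 and 0.79. The genes most like Mcpt4 were A_55_P2181464 (0.90), Mmp10 (0.86), Ptpro (0.84), Inhba (0.83) and Mmp7, which encodes matrilysin (0.82). Mmp7 stood at 2.33 in 5-ASA 5, 2.66 in Control 6 and 0.65 in 5-ASA 3, against -4.76 to -0.40 in the other 13 mice. A_55_P2181464 likewise stood at -0.41, -1.04 and -1.64 in them, and at -6.05 to -3.75 in the others. All of these were picked as the highest r among the tested genes, and are given as a description.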

How the data were processed

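Total RNA was extracted with Trizol and 0.2 ug was labelled with Cy3 for 1-colour Agilent arrays, per the labels. In the deposited scanner files, per the file headers, Agilent Feature Extraction (version 10.10.1.1) subtracted the background from each spot's intensity and removed a spatial trend, with no normalisation across arrays, and added flags for signal well above background and outlying spots. The deposited value table gives no scale. Compared with the scanner data after each probe's Sham median was removed, the authors' deposited table matched log2 intensity with the 75th percentile of each array subtracted (r of 0.992 to 0.998 per array), with column medians from -0.187 to 0.223, so its scale and centring are inferred.

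Log2 processed intensity minus the array's 75th percentile over non-control probes was computed from these scanner values, without outlying spots, with no pseudocount, and the spots of a probe were averaged. A probe was kept when well above background on 4 or more of the 16 arrays, and the brightest kept probe stood for a gene. Of 55681 probes, 27656 were named through the RefSeq table of GRCm38.p6 by accession and 1711 symbols were updated. The comparisons used limma 3.58.1 (R 4.3.3), in 1 model of the 3 groups without covariates, with Benjamini-Hochberg adjustment over all 24572 genes and calls at 0.05. The script was tested on simulated data. The number of mice, 4 to 6 a group, limits the precision: the median SE over all genes was 0.14 to 0.16. The mice are separate animals by their labels.

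Correlations used 100000 permutations, or all pairings under 10 mice, and single differences the exact two-sided permutation test (SciPy 1.17.1). Promoters were aligned with Biopython 1.88. A cell marker level averages, over a list, each gene's deviation (log2) from its mean of 16 arrays. Alternatives covered background correction, scaling, the detection filter, slide, array row, spot position, replicate number, probe choice, the authors' table and leaving out mice. The members and lists were chosen with earlier results of these data known. Named genes are the members, the 3 list genes with the smallest p in 5-ASA against Control and in Control against Sham, Kit, Tpsab1, Gata2, Kitl, Mcpt8 and Prss34, and the 5 genes most like Mcpt1 and Mcpt4. Marker lists of other cell types are given by counts.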

Additional observations from a re-analysis of the deposited data

Results flagged for a closer look

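Among 30 combinations of probe and group, 1 mouse stood far from the rest of its group. Mcpt2 in Control 6 was at -0.20, and the nearest Control mouse, Control 4, at -2.39, a gap of 0.766 of the group's range. Gaps large enough to be listed here arise by chance in about 1 in 20 groups. Control 6 was also the highest Control mouse in Mcpt1, Mcpt4 and Cpa3, and in Fcer1a, which passed the filter partly through the array of Control 6.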

How the results depend on the processing

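No member was called under any of 647 combinations of member difference and alternative (lowest limma adjusted p 0.151), 613 kept their direction and 34 did not, and the cause was not tested. In 5-ASA against Control the direction turned for Cpa3 (-0.75 on slide 2, -0.045 with row as a covariate and in the second row alone, -0.056 without the mice Control 6, 5-ASA 3 and 5-ASA 5), for Mcpt2 (-0.22, -0.67, -0.67 and -0.29 in the same order) and for Tpsb2 (0.15 on slide 2, 0.023 with the mean of its probes). In Control against Sham it turned on slide 1 for Cpa3 (-0.53), Hdc (-0.15) and Mcpt1 (-1.05), without those 3 mice for Mcpt1 (-0.53) and Mcpt4 (-0.028), and with normexp for Fcer1a (-0.013). In 5-ASA against Sham it turned for Hdc on slide 2 (0.35) and Tpsb2 on slide 1 (-0.067). Mcpt1 minus Mcpt4 in Control against Sham was 0.37 on slide 2. With 1 mouse left out, Cpa3 in 5-ASA against Control lay between -0.12 and 0.65, Mcpt2 between -0.30 and 0.63 and Tpsb2 between -0.19 and 0.14. Mcpt1 in Control against Sham lay between -0.53 and 0.84 and Mcpt4 between -0.028 and 0.95, and Hdc in 5-ASA against Sham between -0.25 and 0.068.

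Genes called over the whole array in 5-ASA against Control numbered 0, but 2953 of 34947 without the filter on dim probes, 7 with row as a covariate, and 1 each on slide 2 and without the 3 mice. In 5-ASA against Sham they numbered 14, and 2 with probes well above background on all arrays, 2 on slide 1, 4 on slide 2, 7 with row, 25 with 2 groups in the fit and 0 without the outer spot rows. In Control against Sham they numbered 14, and 1, 4, 1, 7 and 0 under those settings other than row, 9 without the 3 mice and 1 in the first row alone. Leaving out 1 mouse gave 0 in 5-ASA against Control, 11 to 26 in 5-ASA against Sham and 10 to 15 in Control against Sham. Correlated pairs numbered 10, and 1 on slide 1, 5 on slide 2, 6 without the farthest 2 mice, 1 without the 3 mice and 0 in Control mice alone. The mucosal minus connective tissue comparisons past the threshold numbered 0, also with normexp, without the 3 mice and with each mouse left out, and within 1 slide the exact test cannot pass. Mcpt2 minus Mcpt4 in 5-ASA against Control was -0.85 with normexp.

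Groups share replicate numbers. With group means subtracted, correlations of same-numbered mice ran from 0.03 to 0.23 in 5-ASA against Control (3 of 6 over 0.1). They ran from -0.20 to 0.16 in 5-ASA against Sham (3 of 4 over 0.1) and from -0.21 to 0.61 in Control against Sham (2 of 4). They were not compared with correlations of differently numbered mice, so whether the numbers pair the mice was not tested. With the replicate block, 0, 11 and 10 genes were called in these comparisons, and Mcpt1 in Control against Sham stood at -0.56 and Tpsb2 in 5-ASA against Sham at -0.032. Leaving out the 3 mice, using 1 array row and reading pairs in 1 group were alternatives chosen after seeing the data. Cpa3 has no value without the outer spot rows, and of the members only Mcpt2 and Tpsb2 pass a filter over all arrays. Signal over background limits Fcer1a, Cpa3, Cma1 and Ms4a2.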

Other observations

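Mcpt2 had neighbours of its own across the 16 mice, a list added after its values were seen. The unnamed probe A_55_P2181464 (r = 0.94) and Mmp10 (0.89) came first, followed by the alpha-defensin genes Defa26 (0.89), Defa23 (0.88) and Defa3 (0.88). Alpha-defensins are antimicrobial peptides that Paneth cells make in the mouse small intestine, and these genes are near-identical copies whose probes may share signal. Defa23 stood at 2.75 in 5-ASA 5, 2.54 in Control 6 and 0.38 in 5-ASA 3, and at -5.39 to 0.63 in the other 13 mice. Without those 3 mice the r with Mcpt2 was 0.72 for Defa23, 0.68 for Defa26 and 0.83 for Defa3.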
